A study of Mus musculus with 2 samples.

Results

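Collagen chain genes are the autosomal protein-coding genes of mouse whose symbol is Col, a number, a and a number, such as Col1a1. By this rule 42 of 20665 autosomal protein-coding genes were members, and 11 of them encode fibrillar collagens, 4 the basement membrane collagen type IV and 27 other collagens. The rule itself reads gene symbols, biotype and chromosome. The genes were examined in 2 chromatin immunoprecipitation (ChIP-seq) libraries from snap-frozen E10.5 mouse embryo heads. Both used a GFP antibody (sc-9996, against green fluorescent protein), in a series on eye functions of the core histone H3.2. The labels give both libraries the same description and name neither the GFP-bearing protein, a genotype, a strain, a sex nor an untagged control. Library 1 and library 2 therefore form 1 group, and nothing states that they came from separate embryos or pools. Chromatin data hold no transcript levels, so the labelled tissue could not be checked against marker genes here. Library 1 held 584724 called peaks and library 2 held 348, so the results below describe library 1 unless library 2 is named, and there is no replicate check.

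Collagens are the main structural proteins of connective tissue. Each molecule winds 3 chains into a triple helix of repeating glycine triplets, and the chains of 1 molecule often come from different genes. Fibrillar collagens assemble into the banded fibrils of bone, cartilage, skin, sclera and cornea. Type IV collagen forms the sheet-like network of basement membranes, among them the lens capsule. The other collagens decorate fibrils, build microfibrils and anchoring structures, or span the cell membrane. In the embryonic head, mesenchyme from neural crest and mesoderm is a main source of fibrillar collagen.

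Upstream sequences are shown for 4 genes, chosen after their values were seen, so that the bases can be read beside the peaks and densities below. RefSeq promoter sequences (GRCm38.p6) were at hand for 33 of the 42 genes, and the 250 bases before the 5′-most start in that sequence table were read for each, 5′ to 3′ on the gene's strand. That start is not always the annotated end of the gene: the 250 bases lay wholly outside the annotated gene in 13 of the 33, among them the 4 shown, and partly or wholly inside it in 20. Col8a1 had the strongest peak over these bases among the 33 genes, and its partner gene Col8a2 had no peak over them and many along the gene. Col1a2 had a weak peak there, and Col3a1 had none and the lowest GC content of the 33. Capitals mark matches, on either strand, to a CCAAT box (CCAAT), a GC box (GGGCGG) or a TATA box (TATAAA). Overlapping matches were each counted, and in Col8a2 a pair of GC boxes runs together.
Col8a1, chr16:57754738-57754987, minus strand: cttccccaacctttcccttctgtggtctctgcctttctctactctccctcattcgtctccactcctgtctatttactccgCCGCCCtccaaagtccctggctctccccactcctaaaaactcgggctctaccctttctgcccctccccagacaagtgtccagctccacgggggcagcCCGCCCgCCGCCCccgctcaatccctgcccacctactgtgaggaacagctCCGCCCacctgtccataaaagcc
Col8a2, chr4:126286544-126286793, plus strand: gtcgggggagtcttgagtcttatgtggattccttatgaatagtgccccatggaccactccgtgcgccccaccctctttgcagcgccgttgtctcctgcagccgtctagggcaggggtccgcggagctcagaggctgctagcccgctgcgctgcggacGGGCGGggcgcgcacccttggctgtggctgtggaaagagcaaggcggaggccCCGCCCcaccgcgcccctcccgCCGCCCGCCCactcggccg
Col1a2, chr6:4505368-4505617, plus strand: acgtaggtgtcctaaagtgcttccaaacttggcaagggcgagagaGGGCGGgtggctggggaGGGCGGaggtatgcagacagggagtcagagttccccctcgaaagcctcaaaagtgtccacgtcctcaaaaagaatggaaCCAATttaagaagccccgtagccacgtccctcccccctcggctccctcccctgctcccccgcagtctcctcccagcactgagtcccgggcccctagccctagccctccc
Col3a1, chr1:45311288-45311537, plus strand: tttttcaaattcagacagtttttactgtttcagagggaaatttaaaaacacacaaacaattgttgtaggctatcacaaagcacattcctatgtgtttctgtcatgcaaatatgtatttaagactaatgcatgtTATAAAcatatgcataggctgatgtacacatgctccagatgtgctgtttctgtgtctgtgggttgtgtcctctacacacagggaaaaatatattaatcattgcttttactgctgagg

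Every collagen gene carried library 1 peaks, and the density of peaks differed 58.1-fold between the extremes. In all, 2024 peaks had their summit in the body of a collagen gene or within 1 kb of either end. A summit in the windows of neighbouring genes counts for each, which makes 2026. This gave 0.405 peaks per kb over the 42 genes together (95% exact Poisson interval 0.387 to 0.423), against 0.322 (0.321 to 0.323) over all autosomal protein-coding genes. The median gene held 0.624 peaks per kb among collagens and 0.374 among all genes. Such intervals cover counting error only. Collagens stood more towards the upper end of the range: 20 of 42 (47.6%) lay above the upper quartile of all genes, 0.677 peaks per kb. Fewer, 7 (16.7%), lay below the lower quartile, 0.155. Both quartiles hold 25% of all genes by construction. No collagen gene lacked a peak, while 2072 of 20665 genes did. The median window was 112 kb in collagens and 19.5 kb in all genes. These 2 counts were not matched for length, so they do not show a trait of collagens.

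The 3 structural classes overlapped, and their order depended on how genes were averaged. Pooled over length, fibrillar collagens held 0.423 peaks per kb (452 peaks in 1068 kb; 0.385 to 0.464), basement membrane collagens 0.469 (250 peaks in 533 kb; 0.413 to 0.531) and other collagens 0.389 (1324 peaks in 3404 kb; 0.368 to 0.410). By the median gene the order changed to 0.803 in fibrillar, 0.433 in basement membrane and 0.641 in other collagens. The range ran from 0.0208 to 1.21 in fibrillar genes, from 0.204 to 0.823 in basement membrane genes and from 0.0755 to 1.19 in other genes. With 1 library there is no test of a class difference, and the spread within each class was wider than the gaps between classes.

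**Figure D1:**
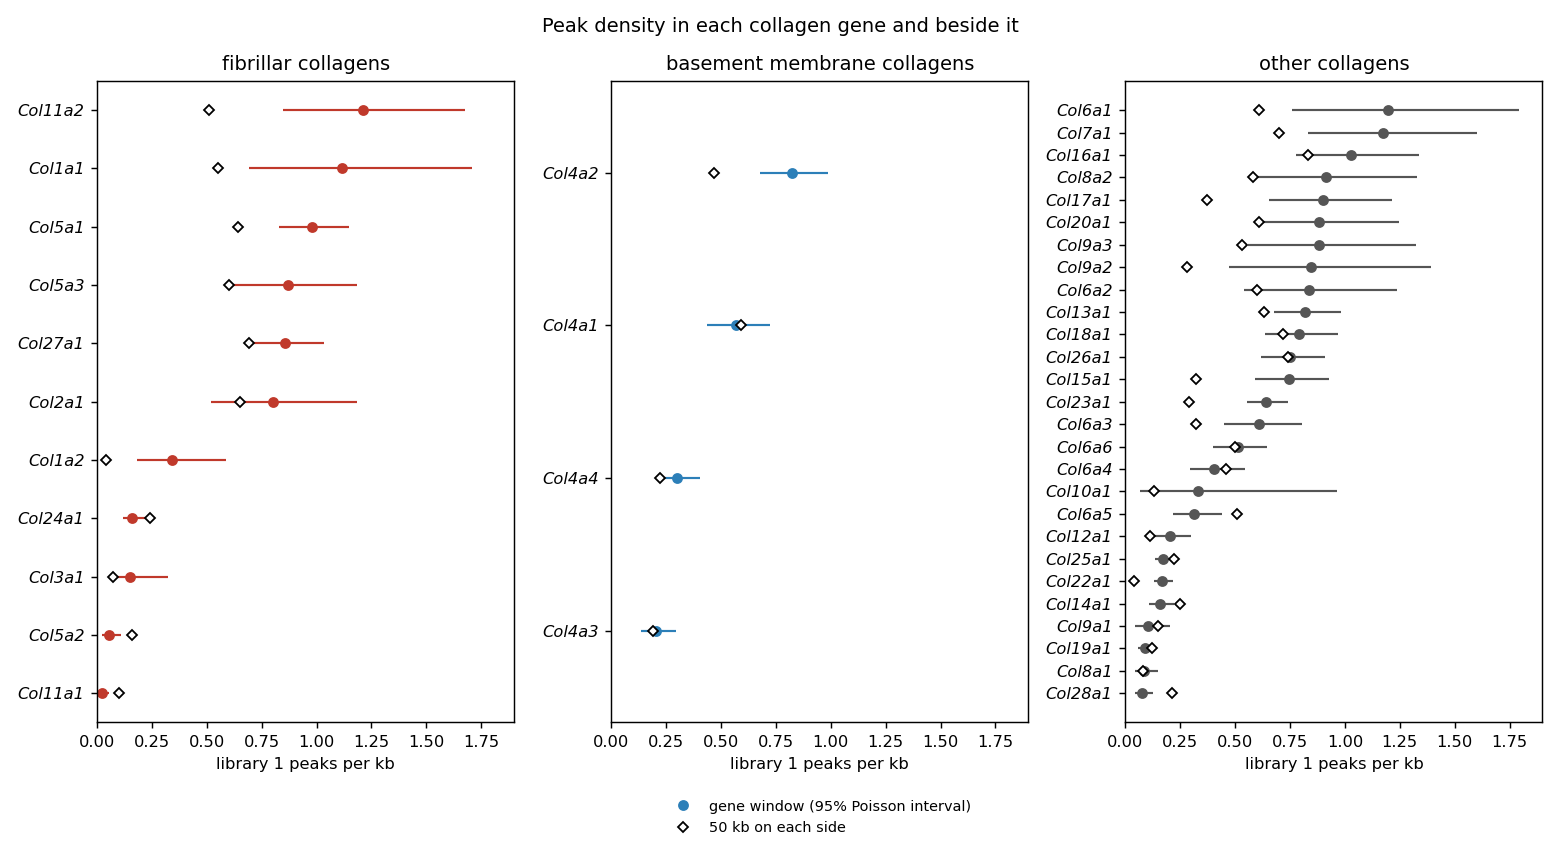
Library 1 peaks per kb (x axis) of each collagen gene, in 3 panels by class; filled points are the gene window with its 95% exact Poisson interval, open diamonds the pooled 50 kb on each side. Fibrillar genes fall into a dense set from 0.803 to 1.21 and a sparse set from 0.0208 to 0.343, while most diamonds lie left of their points.

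Among fibrillar genes, 6 of 11 lay above the upper quartile of all genes and 3 below the lower one. Col11a2, which encodes a chain of the cartilage collagen type XI, was the densest collagen of all, with 36 peaks in 29.8 kb or 1.21 per kb (0.847 to 1.67). Col1a1, the main chain of bone and skin collagen, followed in this class with 21 peaks in 18.8 kb (1.12 per kb, 0.691 to 1.71). Col5a1, whose product starts fibril assembly in the cornea, had 152 peaks in 155 kb (0.980 per kb, 0.830 to 1.15). Col5a3 (0.871), Col27a1 (0.854) and the cartilage gene Col2a1 (0.803 peaks per kb) were close to each other, with overlapping intervals.

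At the other end stood genes in which long stretches had no peak. Col11a1, another type XI chain, had 4 peaks in 192 kb (0.0208 per kb, 0.00567 to 0.0533), and its longest stretch without a summit measured 73.1 kb. Col5a2 had 7 peaks in 131 kb (0.0535 per kb, 0.0215 to 0.110), and Col3a1, a collagen of vessels and skin, had 6 peaks in 40.2 kb (0.149 per kb, 0.0548 to 0.325). Neither Col11a1, Col5a2 nor Col3a1 had a summit within 1 kb of either annotated end. Col24a1, with 0.161 peaks per kb, and Col1a2, with 0.343, made up the rest of the class.

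Of 13 pairs of genes for chains of the same collagen type, the 4 with the largest ratios of peak density were fibrillar. In each of these 4 the sparser gene was Col11a1 or Col5a2, so they are not separate results. All 13 pairs were chosen after their values were seen and are given as the denser over the sparser gene, so the direction is set by the choice. Col11a2 was 58.1 times as dense as Col11a1 (95% exact interval of the ratio 20.8 to 225), and Col2a1, which also supplies a type XI chain, was 38.6 times as dense (13.3 to 153). Col5a1 exceeded Col5a2, its partner in type V collagen, 18.3-fold (8.68 to 46.4), and Col5a3 exceeded Col5a2 16.3-fold (7.24 to 43.0). For type I collagen, Col1a1 exceeded Col1a2 3.26-fold (1.56 to 7.08). Outside the class, Col9a3 and Col9a2 exceeded Col9a1 8.50-fold (3.67 to 22.0) and 8.15-fold (3.24 to 22.2), where type IX coats cartilage fibrils. Col8a2 exceeded Col8a1, its partner in the corneal and vascular collagen type VIII, 11.0-fold (5.29 to 24.6).

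The listed pairs of types IV and VI lay closer together. Genes of these types that were not paired here could differ more, such as Col4a2 (0.823 per kb) and Col4a3 (0.204), or Col6a1 (1.19) and Col6a5 (0.314). Col4a2 exceeded Col4a1 1.45-fold (1.06 to 1.998), and Col4a4 exceeded Col4a3 1.46-fold (0.886 to 2.45). In type VI, which forms beaded microfibrils around cells, Col6a1 exceeded Col6a2 1.43-fold (0.774 to 2.62) and Col6a3 1.97-fold (1.14 to 3.30). Surroundings differed along with the genes in most pairs: the 50 kb on each side were 5.10-fold denser around Col11a2 than around Col11a1, and 7.25-fold denser around Col8a2 than around Col8a1. Around Col4a2 they were 0.797 times as dense as around Col4a1, the reverse of the genes. These 2 genes overlap by 85 bp, so part of the surroundings of each is the other gene, which favours such a reversal. The interval included 1 for Col4a4 over Col4a3, Col6a1 over Col6a2 and Col6a2 over Col6a3 (1.38-fold, 0.815 to 2.28).

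**Figure D2:**
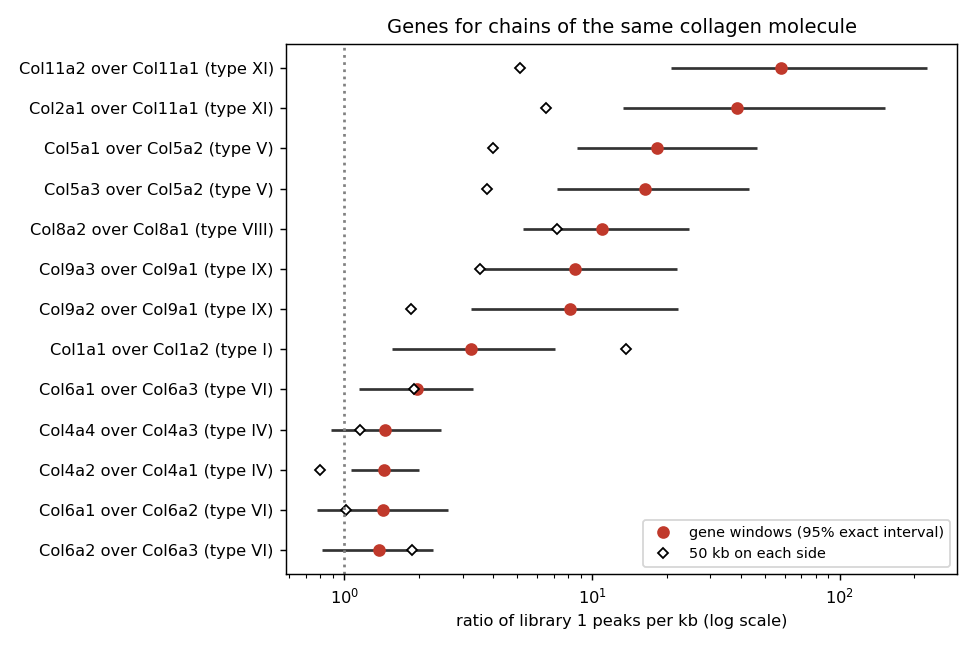
Ratio of library 1 peaks per kb between 2 genes of the same collagen type (x axis, log scale), denser over sparser gene; filled points with 95% exact intervals are the gene windows and open diamonds the 50 kb on each side. Ratios run from 1.38 to 58.1, and the surroundings of Col1a1 and Col1a2 differ more (13.8-fold) than the genes themselves.

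**Figure D3:**
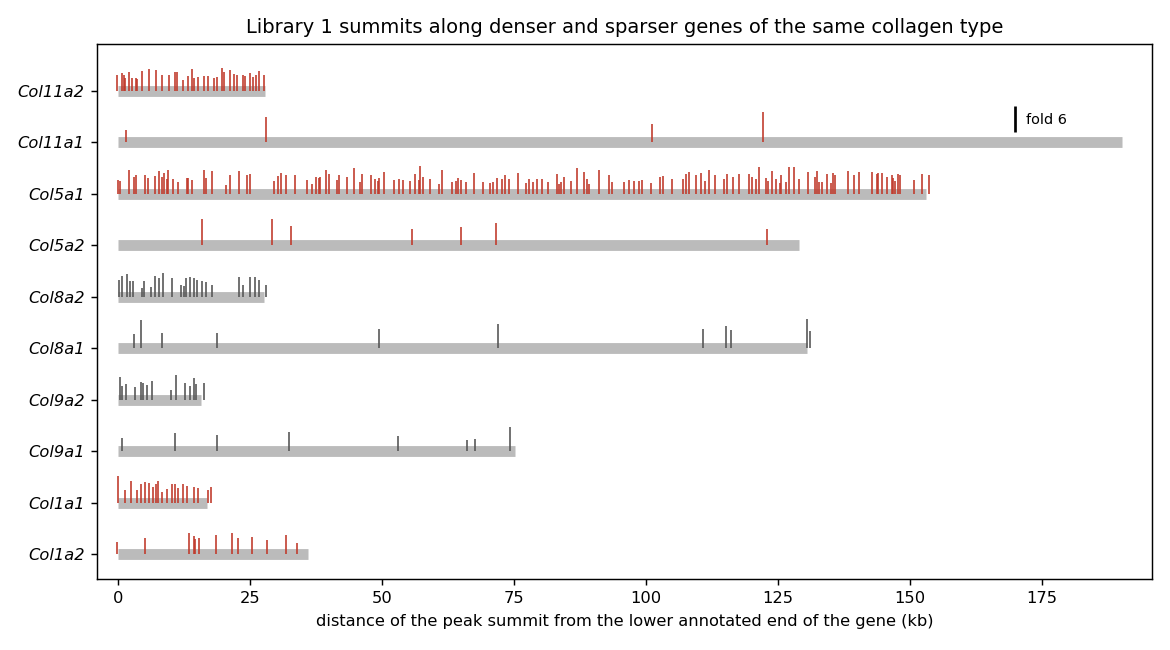
Library 1 summits (vertical lines, height in proportion to the authors' fold enrichment) along 10 genes drawn to scale (grey bars), as distance in kb from the lower annotated end, with each denser gene above its partner. Col11a2 carries 36 summits in its short window and Col11a1 carries 4 over 192 kb, among them 1 of the highest folds.

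Some sparse genes held high peaks. Fold enrichment here is the authors' value for a peak's summit over the local background. The 2024 collagen peaks had a median fold of 3.77, with quartiles of 3.23 and 4.58, against 3.90 with the same quartiles over all autosomal gene windows. Peaks with a −log10 q of at least 5 made up 40.2% of collagen peaks and 40.5% of peaks in all such windows. Among sparse genes, 3 of 4 peaks reached that level in Col11a1, 5 of 7 in Col5a2, 8 of 11 in Col8a1 and 4 of 6 in Col3a1. The densest gene, Col11a2, had 13 of 36. Further sparse genes had lower shares, such as 10 of 29 in Col19a1, 3 of 8 in Col9a1 and 11 of 34 in Col14a1. The best fold in Col3a1 was 5.12. The best fold of a gene ranged only from 4.88 in Col2a1 to 7.54 in Col4a2 and Col18a1, and the summit counts behind these folds were small whole numbers. By class, the median peak was 245 bp wide in fibrillar, 205 bp in basement membrane and 213 bp in other genes, and the shares at −log10 q of at least 5 were 44.0%, 38.7% and 39.1% in that order. The widest collagen peak, 1616 bp, lay in Col16a1.

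The summits of the strongest collagen peaks lay inside gene bodies, with the exception of 1 in Col8a1. A peak in Col4a2 at chromosome 8, 11429207 to 11429563, and a peak in Col18a1 at chromosome 10, 77111263 to 77111767, shared a fold of 7.54. Col18a1 encodes the basement membrane collagen that releases endostatin, and each of these summits rested on 27 overlapping extended reads (95% exact interval 17.8 to 39.3). At a fold of 7.002 and 25 reads (16.2 to 36.9) followed Col4a4, Col6a3, Col11a1 and Col6a5. The Col11a1 peak, at chromosome 3, 114152576 to 114152787, lay 122 kb from the annotated 5′ end of the gene. Col8a1 had 1 of the next folds, 6.76, at chromosome 16, 57754620 to 57754851. Its summit lay 11 bp outside the annotated 5′ end of the gene, so the peak reaches into the Col8a1 bases printed above. A fold of 6.73 and 24 reads were shared by peaks in Col17a1, a transmembrane collagen of hemidesmosomes, Col9a3, Col4a1, Col12a1, Col25a1 and Col4a2, and by another peak in Col8a1. Over all collagen peaks the count at the summit ran from 8 to 27 reads, with a median of 15.

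Among other collagens, 13 of 27 genes lay above the upper quartile of all genes and 4 below the lower one. The densest were Col6a1 (23 peaks in 19.3 kb, 1.19 per kb, 0.757 to 1.79), Col7a1, the anchoring fibril gene of skin (39 peaks in 33.3 kb, 1.17 per kb, 0.833 to 1.60), and Col16a1 (55 peaks in 53.5 kb, 1.03 per kb, 0.775 to 1.34). The sparsest were Col28a1 (15 peaks in 199 kb, 0.0755 per kb, 0.0423 to 0.125), Col8a1 (11 peaks in 132 kb, 0.0830 per kb, 0.0414 to 0.149) and Col19a1 (29 peaks in 332 kb, 0.0873 per kb, 0.0585 to 0.125). Col28a1 also had the longest stretch without a summit, 77.2 kb. The 9 fibril-associated genes (FACIT collagens, which bind the surface of fibrils) pooled to 0.227 peaks per kb. The 6 type VI genes pooled to 0.506, the 4 transmembrane collagens to 0.465, the 3 network-forming genes to 0.240 and the 2 multiplexins, Col15a1 and Col18a1, to 0.768. Within FACIT collagens, Col9a1, Col12a1, Col14a1, Col19a1 and Col22a1 lay between 0.0873 and 0.201 per kb, whereas Col9a2, Col9a3, Col16a1 and Col20a1 lay between 0.845 and 1.03. Among transmembrane collagens, Col25a1, a neuronal collagen and the longest member, had 72 peaks in 422 kb (0.171 per kb, 0.134 to 0.215), and Col13a1, found at neuromuscular junctions, had 117 in 143 kb (0.818, 0.677 to 0.981). Col26a1 had 108 peaks in 144 kb (0.752, 0.617 to 0.908). Col10a1, the collagen of hypertrophic cartilage and the shortest member, had 3 peaks in 9.11 kb (0.329, 0.0679 to 0.963), so its interval spans most of the class.

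The 4 type IV genes form 2 head-to-head pairs, in which neighbours are read outward from a common start region. Col4a1 held 66 peaks (0.567 per kb, 0.438 to 0.721) and Col4a2 114 (0.823, 0.679 to 0.989). Col4a4 held 42 peaks (0.299, 0.215 to 0.404) and Col4a3 28 (0.204, 0.136 to 0.295). Each pair shared 1 summit at its common start. For Col4a1 and Col4a2, whose annotations overlap by 85 bp on chromosome 8, a peak with a fold of 2.98 lay at 11312474 to 11312743. For Col4a3 and Col4a4, whose annotations overlap by 114 bp on chromosome 1, a peak 1134 bp wide with a fold of 4.59 lay at 82586498 to 82587631.

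Several collagens lie next to each other, and their densities are given here as a description. On chromosome 1, Col9a1 and Col19a1 lie 4.94 kb apart with 0.104 and 0.0873 peaks per kb, and Col3a1 and Col5a2 lie 24.6 kb apart with 0.149 and 0.0535. On chromosome 10, Col6a2, Col6a1 and Col18a1 held 0.837, 1.19 and 0.791 peaks per kb. On chromosome 9, the type VI genes Col6a6, Col6a5 and Col6a4 held 0.511, 0.314 and 0.405. On chromosome 2, Col9a3 and Col20a1 held 0.882 and 0.883, although 8 protein-coding genes lie between them.

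The surroundings of a gene varied with the gene. Over the 42 collagens, peaks per kb in the gene and in the 50 kb on each side had a Spearman rho of 0.78, and over all 20665 genes rho was 0.74. All points share 1 library, and genes near each other share surroundings. Length also varied with density, with a rho of −0.59 between window length and peaks per kb in collagens and −0.05 in all genes. Collagens of 20 to 60 kb had a median of 0.882 peaks per kb (12 genes) against 0.391 in all genes of that length, and 10 of the 12 lay above the upper quartile of those genes. Collagens over 120 kb had a median of 0.201 (19 genes) against 0.211, with 7 above the upper and 5 below the lower quartile.

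**Figure D4:**
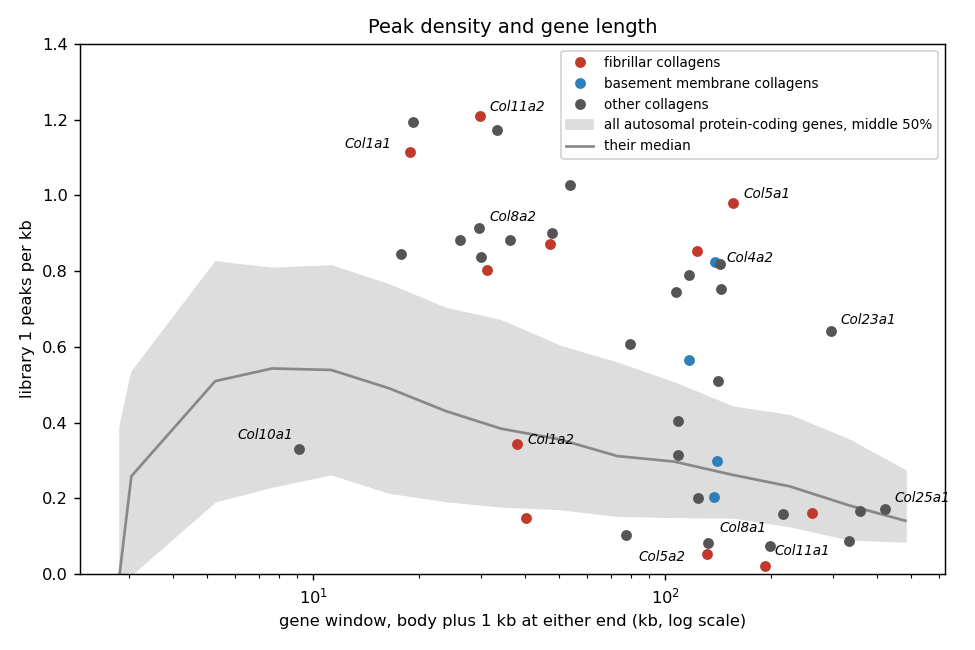
Library 1 peaks per kb (y axis) against the length of the gene window in kb (x axis, log scale) for 42 collagen genes, coloured by class, over the median and middle 50% of all autosomal protein-coding genes (grey). Most collagens of 20 to 60 kb lie above the grey band, and those over 120 kb lie above, within and below it.

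No collagen gene passed when each count was set against all genes of its length. The number of summits per gene was fitted over all 20665 genes with a negative binomial regression on log window length and its square. At an adjusted p under 0.05 (Benjamini-Hochberg over all genes), 0 of 42 collagens were called, and 0 of 20665 genes (0%). The adjusted p of the members ran from 0.840 to 0.997. At an unadjusted p under 0.05, 2 of 42 collagens stood out, against 499 of all genes (2.41%). They were Col5a1, with 152 summits where the fit gave 48.9 (negative binomial fit, unadjusted p = 0.0255), and Col11a1, with 4 where it gave 55.6 (unadjusted p = 0.0209). The counts of 25 collagens (59.5%) lay above their fitted value, against 44.4% of all genes.

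Set against their own surroundings, 31 of 42 collagens (73.8%) were denser than the 50 kb on each side, against 54.8% of all genes. An exact binomial test per gene, adjusted over all 20665 genes, called 7 collagens as denser (16.7%) where 1.81% of all genes were called. It called none as sparser, where 2.21% of all genes were called. At an unadjusted p under 0.05, 13 collagens were denser, against 8.24% of all genes, and 4 were sparser, against 5.6%. Long genes give more counts to test, and among genes of 20 to 60 kb the shares called denser were 25% of 12 collagens and 2.56% of all genes. Over 120 kb they were 15.8% of 19 collagens and 3.70% of all genes. The test takes summits as independent, and with the extra spread between genes estimated over all genes (beta-binomial, added after the data were seen) 0 collagens were called in either direction. With peaks of −log10 q of at least 5 only Col4a2 was called, against 0.140% of all genes, while ratios such as 13.2 for Col1a2, 3.66 for Col23a1 and 2.30 for Col11a2 stayed above 1 without passing. The ratio of Col1a2 rested on 5 such summits in the gene and at most 4 around it.

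The 7 genes came from all 3 classes. Col1a2, the partner chain of type I collagen, had 0.343 peaks per kb against 0.04 around it, an 8.57-fold difference (exact binomial test, adjusted p = 0.00469), from 13 summits in the gene and 4 in the surrounding 100 kb. Col22a1, a collagen of tissue junctions, had 0.168 against 0.04 (4.20-fold, exact binomial adjusted p = 0.0384). Col17a1 had 0.901 against 0.37 (2.44-fold, adjusted p = 0.00661 by the same exact test). Col11a2 had 1.21 against 0.51 (2.37-fold, exact adjusted p = 0.0094). Col15a1, a collagen of the basement membrane zone, had 0.744 against 0.32 (2.33-fold, exact adjusted p = 0.00278), and Col23a1, a transmembrane collagen, had 0.641 against 0.29 (2.21-fold, exact adjusted p = 0.00175). Col4a2 had 0.823 against 0.47 (1.75-fold, exact adjusted p = 0.0337), and part of its surroundings is Col4a1. With 100 kb on each side Col4a2 lost the call at 1.37-fold. Col1a2 and Col22a1 kept it in that setting, at the lower ratios of 3.26-fold and 2.80-fold. With surroundings outside all protein-coding gene windows the call was lost by Col4a2 at 1.95-fold, Col17a1 at 1.998-fold, Col22a1 at 4.20-fold and Col23a1 at 3.07-fold.

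Most collagen genes had a peak at an end. A summit lay within 1 kb of an annotated end in 37 of 42 collagens (88.1%, exact binomial interval 74.4 to 96.0), against 80.6% of all genes, a share inside that interval. The 5 without were Col11a1, Col5a2, Col3a1, Col28a1 and Col22a1. Among the 33 collagens whose strand the promoter sequences give, 29 (87.9%) had a summit within 1 kb of the 5′ end, against 67.7% of 16457 genes, and 20 (60.6%) had one within 1 kb of the 3′ end, against 57.7%. With the body cut into 3 equal parts from the 5′ to the 3′ end, collagens held 0.415, 0.426 and 0.487 peaks per kb. All genes with a known strand held 0.297, 0.302 and 0.366 in the same parts.

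A peak touched the 250 bases before the start in the sequence table in 20 of 33 collagens (60.6%), against 37.9% of 16457 genes. Where those bases lay wholly outside the annotated gene, a peak touched them in 7 of 13 collagens (53.8%), against 34.6% of 9841 genes, and elsewhere in 13 of 20 (65%), against 42.8% of 6616 genes. Of the 4 genes printed above, the peak of Col8a1 had a fold of 6.76 and that of Col1a2 2.96, and Col8a2 and Col3a1 had none. The GC content of these bases had a median of 59.6% in collagens, from 35.2% in Col3a1 to 76.4% in Col5a1, and of 55.6% in all genes. It was 60.6% in collagens with such a peak and 57.6% in those without, and 59.2% and 51.6% over all genes. A GC box was present in 19 of 33 collagens (57.6%) and in 43.6% of all genes, a CCAAT box in 11 (33.3%) and 36.3%, and a TATA box in 5 (15.2%) and 12.5%. Col8a1 held 4 GC boxes, Col8a2 4, Col1a2 2 with 1 CCAAT box, and Col3a1 1 TATA box. A match describes letters and not binding.

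Genes that make, export, crosslink, bind or cut collagen were described in the same way, from a list of 52. They pooled to 0.393 peaks per kb, with a median of 0.599, and 19 lay above the upper and 10 below the lower quartile of all genes. None passed the fit over all genes, and none at an unadjusted p under 0.05. Against their surroundings 4 were denser (7.69%, against 1.81% of all genes) and 1 was sparser (2.21% of all genes). The test takes summits as independent here too. Under the beta-binomial 1 of all genes was called denser and 10 sparser, so at most 1 of these 4 could keep its call. The denser ones were the lysyl oxidase gene Loxl4 (1.11 peaks per kb against 0.36, exact binomial adjusted p = 0.00437), the prolyl hydroxylase gene P4ha3 (0.635 against 0.18, exact adjusted p = 0.00678), the collagen-binding integrin gene Itga11 (0.786 against 0.42, exact adjusted p = 0.0285) and the procollagen peptidase gene Adamts14 (0.932 against 0.52, exact adjusted p = 0.0423). Loxl2, another lysyl oxidase gene, was sparser (0.112 against 0.41, exact adjusted p = 0.005). The highest folds in the list were 8.08 in Itga11, 7.27 in Pcolce2, an enhancer of procollagen processing, and 7.002 in both Adamts14 and Ddr2, a collagen receptor gene. The collagenase gene Mmp8 had no peak. By function, the median gene held 0.643 peaks per kb among prolyl and lysyl modification genes, 0.393 among folding and export genes, 0.660 among propeptide removal and crosslinking genes, 0.216 among receptors and 0.341 among collagenases.

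Library 2 had no peak in any collagen gene, and the labels do not say whether it was made as a control. Of its 348 peaks, 118 lay on autosomes, and 31 of 20665 genes (0.150%) held a summit. For the 42 collagens, 0 genes allows a share of up to 7.14%, so a share as low as that of all genes could not be seen with this number of members. The nearest library 2 summit lay 0.0963 Mb from Col19a1.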

How the data were processed

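Both peak lists were deposited by the authors, 1 per library, in the narrowPeak format of MACS2. MACS2 2.1.0, Bowtie 1.1.2, Trimmomatic 0.33 and bcl2fastq 2.17 are listed per the submitters' processing notes, with mm10 and hg38 as builds and no roles given. Any control for peak calling is not given in the sources used here. Of the deposited columns, the score is the whole-number part of 10 times −log10 q, the fold is a ratio at the summit over background, and −log10 p and −log10 q are the caller's. Reads at a summit were solved from fold and −log10 p (tolerance 0.002 on the −log10 scale, reached for 100% of 2024 collagen peaks). Read depth per library is not given in the files.

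Genes came from the NCBI RefSeq table of GRCm38.p6. A peak was assigned by its summit to each gene body extended by 1 kb at either end, and density was summits over window length. Coordinates are mm10, counted from 1. Across all 20665 genes, a negative binomial fit (SciPy 1.17.1) and an exact binomial test against the 50 kb on each side were adjusted by Benjamini-Hochberg, and both were tested on simulated data. Named genes were the 3 highest and lowest by density per class, genes past either test, genes of the 10 highest folds (ties with the last are given too), touching neighbours and 17 fixed symbols. Members, classes and lists were chosen with earlier results of these data known. P-values describe positions within 1 library, not animals.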

Additional observations from a re-analysis of the deposited data

How the results depend on the processing

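The 0 collagens called by the fit over all genes stayed 0 with peaks of −log10 q of at least 5, summits in the body alone, any overlap with the window, length as an offset and chromosome density added. In each of these settings the fit called 0 of all genes, so the count says nothing particular to collagens. With peaks of −log10 q of at least 5, pooled peaks per kb were lower (fibrillar 0.186, basement membrane 0.182, other 0.152). That fall was fixed by the cut, which keeps 40.2% of collagen peaks. Pooled density lay outside its counting interval with the multiplexins moved to the basement membrane class (basement membrane 0.558, other 0.362). The median gene (fibrillar 0.803, other 0.641) also lay outside that interval, but it is a different measure, not weighted by length. The 7 genes called denser than their surroundings became 1 with −log10 q of at least 5 and 0 under the beta-binomial, which called 11 of all genes; the count was 7 in the body alone (1.80% of all genes), 9 with 100 kb on each side (6 of the 7 remained; 3.51% of all genes) and 5 outside other gene windows (3 remained; 1.33% of all genes). Single-gene ratios kept their direction in all settings run. The cause was not tested. Without library 1, 0 collagens had a peak; without library 2, 42 did. No paired analysis was possible because there is 1 group. Depth limits single summits, which rest on 8 to 27 reads.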

Other observations

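The 2 X-linked type IV genes, which the autosomal rule leaves out, had far fewer peaks than their autosomal relatives. Col4a6 held 6 library 1 peaks in 311 kb, or 0.0193 per kb (95% exact Poisson interval 0.00709 to 0.0420), and Col4a5 held 4 in 216 kb, or 0.0185 (0.00505 to 0.0474). The 966 protein-coding genes of the X chromosome pooled to 0.0243 peaks per kb, inside both intervals. Among autosomal collagens, Col11a1 alone had a density this low, 0.0208 per kb.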
